A study of Homo sapiens with 14 samples.

Results

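Nuclear receptors are transcription factors that bind DNA as monomers, as pairs of the same receptor or with a retinoid X receptor as partner, and many change their activity when a small lipophilic molecule such as a steroid, a retinoid, a thyroid hormone or a fatty acid binds them. Without a ligand several of them recruit corepressor complexes, and with a ligand they exchange these for coactivators. Others, called orphan receptors, have no established hormone and act mainly through how much of them a cell makes. In ovarian carcinoma they are known mostly for the oestrogen, progesterone and glucocorticoid receptors. The genes described here are 46 genes of this superfamily, chosen as a list of gene symbols. All 46 were found among the 58219 genes of the count table by gene identifier.

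The cells were OVCAR4, an established human line labelled as high-grade serous ovarian cancer, at passages 1 to 12. They received siRNA pools, which degrade a matching transcript, and the study asked what loss of candidate master transcription factors does to expression. The groups were siPAX8, siSOX17, siDual (the PAX8 and SOX17 pools together), siMECOM and siWT1, each with 2 libraries, and the non-targeting controls siNT1 (the ON-TARGETplus Non-targeting Control Pool) and siNT2 (a custom non-targeting pool), also with 2 libraries each. All groups shared the siRNA dose of 120 nM, the transfection of 300000 cells, a medium change at 24 hours and the harvest at 72 hours, and there were no untransfected cells. Each factor was targeted by a single pool in a single line. The labels do not say how the dose was divided in siDual, or whether the 2 libraries of each stem from different transfections, and p-values therefore measure only the spread between these libraries, which may be technical.

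Total counts per library were 41107918 to 49803860 in the 10 knockdown libraries and 40832825 to 49059114 in the 4 control libraries. Each targeted transcript was lower in the group named for it. PAX8 averaged 35.5 CPM in siPAX8 and 51.7 CPM in siDual, against 204.8 CPM in controls. SOX17 averaged 14.4 CPM in siSOX17 and 16.8 CPM in siDual, against 110.6 CPM in controls. MECOM averaged 12.6 CPM in siMECOM, 44.6 CPM in siSOX17 and 49.3 CPM in siDual, against 129.9 CPM in controls, so the SOX17 knockdowns were also partly MECOM knockdowns. In siPAX8 SOX17 averaged 80.4 CPM and MECOM 97.7 CPM, both below the control means, and in siSOX17 PAX8 averaged 269.8 CPM, above its control mean. WT1 averaged 0.00957 CPM in siWT1, against 0.394 CPM in controls, so the transcript targeted in siWT1 was scarce in the controls too, and PAX8 averaged 114.9 CPM in siWT1. Epithelial markers were high, with KRT7 at 1006.8 TPM and EPCAM at 231.6 TPM in controls, whereas the serous marker MSLN was at 0.910 TPM. In controls the sum of 3 leukocyte markers was 0.365 to 0.564 TPM, with PTPRC at 0.0163 TPM and CD14 at 0.396 TPM. The sum of 4 fibroblast markers was 9.44 to 11.4 TPM, nearly all of it COL1A1 (9.94 TPM), with DCN at 0.0203 TPM, and that of 3 endothelial markers was 3.00 to 3.62 TPM, of which CDH5 made up most. The share of counts from mitochondrially encoded genes was 7.91 to 11.0% in knockdown libraries and 5.34 to 6.13% in control libraries. Removing those genes before scaling ended none of the 89 receptor calls described here.

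Control cells expressed 24 of the 46 receptors at a mean of at least 1 TPM (counts scaled by gene length and library, so that levels of different genes can be compared). The orphan receptor NR2F6 (also called EAR2) led at 261.9 ± 32.1 TPM (SD, n = 4 for every control level here). NR1H2, the oxysterol receptor LXR beta, followed at 140.7 ± 7.0 TPM. ESRRA, the orphan oestrogen-related receptor alpha of mitochondrial metabolism, stood at 42.7 ± 4.2 TPM. PPARD, a fatty acid receptor, stood at 27.9 ± 1.1 TPM, and NR3C1, the glucocorticoid receptor, at 22.1 ± 0.96 TPM. The ranges of these 5 genes over the control libraries did not overlap from any of them to the next, nor from NR3C1 to RXRB below it.

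A run of 9 genes lay between 10 and 20 TPM with ranges that overlapped from each to the next. They were the retinoid X receptor RXRB (17.9 TPM), the orphan NR2F2 or COUP-TFII (17.0 TPM), the retinoic acid receptor RARG (16.4 TPM), the vitamin D receptor VDR (16.0 TPM), the haem-binding repressor NR1D2 or REV-ERB beta (15.9 TPM), the thyroid hormone receptor THRB (13.7 TPM), the retinoic acid receptor RARA (13.1 TPM), the orphan NR2C2 or TR4 (12.4 TPM) and the retinoid X receptor RXRA (11.1 TPM). A further 7 lay between 3 and 7 TPM. These were the immediate early orphan NR4A1 (6.45 TPM), the fatty acid receptor PPARA (6.38 TPM), THRA (5.96 TPM), the xenobiotic receptor NR1I3 or CAR (5.49 TPM), NR1D1 or REV-ERB alpha (5.13 TPM), NR1H3 or LXR alpha (3.99 TPM) and NR2C1 or TR2 (3.84 TPM). The lowest expressed were NR4A2 (2.17 TPM), NR4A3 (1.25 TPM) and NR6A1, the germ cell nuclear factor (1.23 TPM). RXRA and NR4A1 did not overlap, nor did PPARA and THRA, NR2C1 and NR4A2, or NR4A2 and NR4A3.

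**Figure D1:**
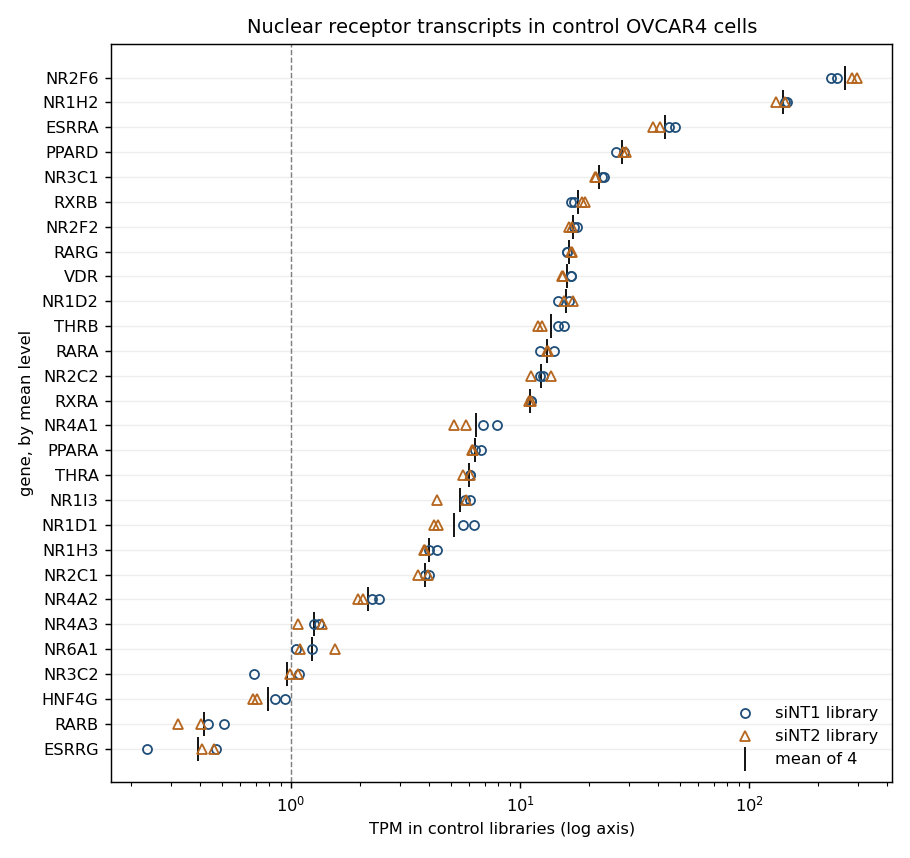
Level of the 28 receptor genes at or above 0.1 TPM in the control libraries, on a log axis in TPM, with siNT1 libraries as circles, siNT2 libraries as triangles and the mean of 4 as a bar. The dashed line marks 1 TPM, and NR2F6 stands highest at a mean of 261.9 TPM.

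Below 1 TPM stood 4 genes with low levels: the mineralocorticoid receptor NR3C2 (0.959 TPM), the orphan HNF4G (0.796 TPM), the retinoic acid receptor RARB (0.417 TPM) and the oestrogen-related ESRRG (0.394 TPM). The other 18 were near 0, under 0.1 TPM. They included the sex steroid receptors ESR1 (0.0318 TPM), ESR2 (0.0766 TPM) and PGR (0.00917 TPM). They also included the fat cell receptor PPARG (0.00648 TPM), the hepatocyte receptors HNF4A (0.0229 TPM), NR1I2 (0.00531 TPM) and NR1H4 (0.00439 TPM), and the steroidogenic receptors NR5A1 (0.0161 TPM) and NR5A2 (0.00548 TPM). RORA (0.0519 TPM), RORB (0.00566 TPM), ESRRB (0.0699 TPM), NR2E1 (0.0626 TPM), NR2E3 (0.0488 TPM), NR0B2 (0.0379 TPM), RXRG (0.00477 TPM) and NR2F1 (0.00306 TPM) completed the group with NR0B1. NR0B1 had 0 counts in all 14 libraries, which allows up to 3 counts or 0.0798 CPM in the library with the smallest effective size, siDual replicate 1. The paralog of NR2F2, NR2F1, had 1 count over the 4 control libraries.

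A low-count filter over the whole table left 21032 genes for testing, among them 32 of the 46 receptors. Of these, 30 passed through their control levels, while ESR1 and ESRRB passed only through knockdown libraries, so their being tested depended on their level in the knockdowns, and their tests are not read as results. The 14 untested genes summed to at most 72 counts over all libraries, the highest being PGR, with 10 and 12 counts in siPAX8 against 4, 0, 3 and 3 in controls. Changes between groups were tested with edgeR's quasi-likelihood test on the counts, adjusted by Benjamini-Hochberg over all 21032 genes, with calls made at an adjusted p under 0.05. Values between groups are CPM, read counts scaled to the effective library size, and errors of log2 fold changes are SE.

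Against the controls, 29 of the 32 tested receptors were called in at least 1 of the 5 knockdowns, a share of 90.6%, where 83.5% of all genes tested were. In siPAX8, 7 were higher and 12 lower, where 26.9% of all genes tested were called higher and 25.4% lower. In siSOX17, 6 were higher and 11 lower, beside 27.2% and 25.5% of all genes. In siDual, 7 were higher and 12 lower, beside 28.9% and 27.3%. In siMECOM, 7 were higher and 10 lower, beside 16.5% and 16.1%, and in siWT1, 9 were higher and 8 lower, beside 17.7% and 19.8%. ESR1 is counted among the higher in siSOX17, siDual and siMECOM, and over the 30 receptors that passed through their control levels the higher counts there were 5, 6 and 6. Of those 30, 28 were called in at least 1 knockdown. As shares of the 32 tested, 18.8 to 28.1% were higher and 25.0 to 37.5% lower. The shares called higher in siPAX8, siSOX17 and siDual lay below those of all genes, and every other share lay above. The median log2 fold change of the tested receptors lay between -0.14 in siSOX17 and 0.15 in siWT1, and that of all genes between -0.01 and 0.01. In these bulk samples a lower level in every cell and fewer cells with the transcript cannot be told apart. Some counts rested on a single library: the 12 lower in siPAX8 became 6 without siPAX8 replicate 1, the 10 lower in siMECOM became 5 without siMECOM replicate 2, and the 8 lower in siWT1 became 5 without siWT1 replicate 1.

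**Figure D2:**
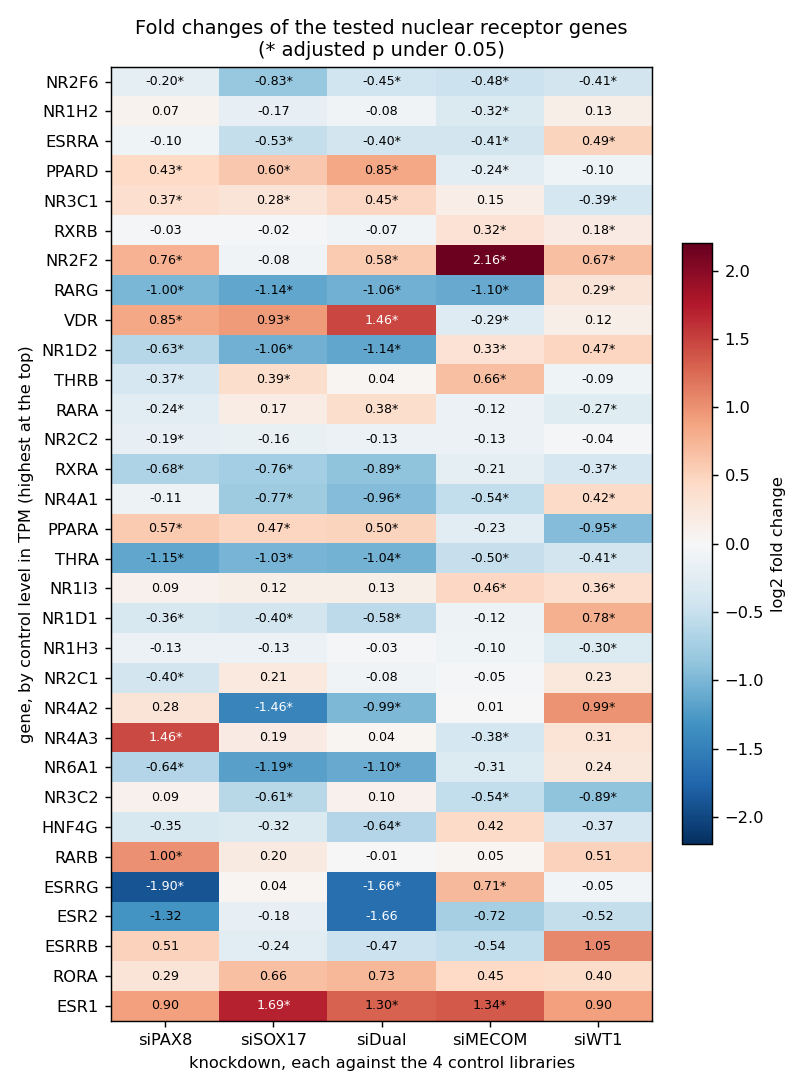
Log2 fold change of each of the 32 tested receptor genes (rows, by control level in TPM) in each knockdown against the 4 control libraries (columns), with a star for an adjusted p under 0.05. THRA and NR2F6 were called lower in all 5 columns, the siPAX8 star of NR2F6 being lost in 9 of 15 alternatives. The stars of ESR1 rest on a test that depended on its level in the knockdowns, and the largest called increase is NR2F2 in siMECOM at 2.16.

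THRA and NR2F6 were called lower in all 5 knockdowns, 6.25% of the 32 tested, where 1.73% of all genes were. None was called higher in all 5, and RARG and NR1D2 were called in all 5 with mixed directions. The siPAX8 call of NR2F6 was lost in 9 of 15 alternatives, and the siWT1 calls of NR2F6 and THRA in 1 each. Of the 29, 10 were lower wherever they were called, 5 were higher wherever they were called and 14 were called in both directions. As shares of the 32 tested these were 31.2%, 15.6% and 43.8%, beside 28.5%, 30.9% and 24.0% of all genes tested. Over the 30 receptors that passed through their control levels, which leaves out ESR1, the counts were 10, 4 and 14. ESR2, ESRRB and RORA were tested and never called. The 5 comparisons share the 4 control libraries.

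Among the retinoic acid receptors, which bind DNA with a retinoid X receptor and activate genes such as CYP26A1 when retinoic acid is present, RARG changed most. RARG (ENSG00000172819.16, minus strand of chromosome 12 at 53210567 to 53232980, hg38) had 16.9 and 15.5 CPM in siPAX8, 14.3 and 15.3 CPM in siSOX17, 13.8 and 17.3 CPM in siDual and 15.1 and 15.2 CPM in siMECOM, against 31.7, 31.3, 32.3 and 34.9 CPM in controls. Every library of these 4 knockdowns lay below every control library. The log2 fold changes were -1.003 ± 0.09 in siPAX8 (adjusted p = 1.8e-08), -1.14 ± 0.09 in siSOX17 (adjusted p = 5.02e-09), -1.06 ± 0.09 in siDual (adjusted p = 8.02e-09) and -1.10 ± 0.09 in siMECOM (adjusted p = 2.07e-08). In siWT1 the values were 38.7 and 40.7 CPM, above all controls, with a log2 fold change of 0.29 ± 0.08 (adjusted p = 0.00979) that gave 0.25 and an adjusted p of 0.0910 without siWT1 replicate 2 and 0.24 (adjusted p = 0.0634) with siNT2 as the only control.

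RARB had 1.34 and 1.02 CPM in siPAX8, against 0.731, 0.606, 0.561 and 0.484 CPM in controls. Both siPAX8 libraries were above all controls, with a log2 fold change of 1.00 ± 0.22 (adjusted p = 0.000916), and the gene was called in no other knockdown. RARA differed less: it was called higher in siDual (0.38 ± 0.09, adjusted p = 0.00128) and lower in siPAX8 (-0.24 ± 0.09, adjusted p = 0.0383) and siWT1 (-0.27 ± 0.09, adjusted p = 0.0268). Those 3 calls each ended when a library was left out, with log2 fold changes of 0.21 without siDual replicate 1 (adjusted p = 0.110), -0.26 without siPAX8 replicate 1 (adjusted p = 0.111) and -0.20 without siWT1 replicate 1 (adjusted p = 0.229). They were lost in 1, 7 and 4 of 15 alternatives. RARA shares 11.8% of its length with RARA-AS1 and 6.15% with AC080112.3, both on the opposite strand.

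RXRA, a partner of the retinoic acid receptors, had 28.9 and 29.3 CPM in siPAX8, 25.1 and 30.0 CPM in siSOX17, 26.1 and 24.2 CPM in siDual, 33.6 and 38.2 CPM in siWT1 and 41.9 and 38.5 CPM in siMECOM, against 45.2 to 48.4 CPM in controls. All 10 knockdown libraries lay below the controls. RXRA fell in siPAX8 (-0.68 ± 0.08, adjusted p = 1.31e-06), siSOX17 (-0.76 ± 0.08, adjusted p = 3.9e-07), siDual (-0.89 ± 0.09, adjusted p = 3.94e-08) and siWT1 (-0.37 ± 0.08, adjusted p = 0.00136), while siMECOM gave -0.21 ± 0.08 (adjusted p = 0.0541). RXRB, the other expressed retinoid X receptor, was higher in siMECOM (34.0 CPM, against 27.3 CPM in controls, log2 fold change 0.32 ± 0.07, adjusted p = 0.00091) and gave between -0.07 and -0.02 in siPAX8, siSOX17 and siDual. Its call in siWT1 (0.18 ± 0.07, adjusted p = 0.0416) was lost in 8 of 15 alternatives, among them leaving out either siNT1 library, siNT2 replicate 1 or either siWT1 library, and the value was 0.09 (adjusted p = 0.416) with siNT2 as the only control. RXRB overlaps SLC39A7 on the opposite strand over 6.22% of its length, and the strand setting of the counting is not given in the sources used here, so reads of the overlap cannot be assigned.

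Of the thyroid hormone receptors, THRA fell in all 5 knockdowns, while THRB fell in siPAX8 and rose in siSOX17 and siMECOM. THRA (ENSG00000126351.12, plus strand of chromosome 17 at 40058290 to 40093867) had 7.22 and 7.24 CPM in siPAX8, 8.01 and 7.72 CPM in siSOX17, 8.20 and 7.47 CPM in siDual, 12.1 and 10.6 CPM in siMECOM and 11.1 and 13.1 CPM in siWT1, against 16.4, 16.0, 15.8 and 16.0 CPM in controls. No knockdown library reached the control range. The log2 fold changes were -1.15 ± 0.10 in siPAX8 (adjusted p = 1.16e-08), -1.03 ± 0.10 in siSOX17 (adjusted p = 6.34e-08), -1.04 ± 0.10 in siDual (adjusted p = 4.2e-08), -0.50 ± 0.09 in siMECOM (adjusted p = 0.000409) and -0.41 ± 0.09 in siWT1 (adjusted p = 0.00184). The siWT1 value was -0.30 without siWT1 replicate 1 (adjusted p = 0.0588). THRA shares 263 bases with NR1D1 on the opposite strand, 9.49% of the length of NR1D1.

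THRB averaged 35.6 CPM in siPAX8, 60.1 CPM in siSOX17 and 72.6 CPM in siMECOM, against 46.1 ± 5.3 CPM in controls (SD, n = 4). It fell in siPAX8 (-0.37 ± 0.08, adjusted p = 0.000676) and rose in siSOX17 (0.39 ± 0.08, adjusted p = 0.000292) and siMECOM (0.66 ± 0.08, adjusted p = 1.57e-06). In siDual it averaged 47.2 CPM, a log2 fold change of 0.04 ± 0.08 (adjusted p = 0.690). With 1 control pool alone the call held but the value was -0.23 in siPAX8 against siNT2 and 0.25 in siSOX17 against siNT1.

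The REV-ERB receptors repress clock genes such as ARNTL in competition with the activating ROR receptors, which were near 0 here. NR1D2 (ENSG00000174738.12, plus strand of chromosome 3 at 23945260 to 23980618) had 23.2 and 23.0 CPM in siPAX8, 16.6 and 17.6 CPM in siSOX17, 16.7 and 15.7 CPM in siDual, 46.7 and 43.0 CPM in siMECOM and 51.8 and 47.3 CPM in siWT1, against 33.1, 36.0, 37.1 and 37.0 CPM in controls. All libraries of siPAX8, siSOX17 and siDual lay below the controls and all libraries of siMECOM and siWT1 above them. NR1D2 fell by 0.63 ± 0.08 on the log2 scale in siPAX8 (adjusted p = 8.22e-07), by 1.06 ± 0.08 in siSOX17 (adjusted p = 1.39e-09) and by 1.14 ± 0.08 in siDual (adjusted p = 3.69e-10). It rose by 0.47 ± 0.07 in siWT1 (adjusted p = 3.34e-05) and by 0.33 ± 0.07 in siMECOM (adjusted p = 0.00153), the last giving 0.26 without siMECOM replicate 1 (adjusted p = 0.0521). NR1D1 averaged 9.34 CPM in siWT1 and 3.65 CPM in siDual, against 5.50 ± 1.04 CPM in controls, which was 0.78 ± 0.12 on the log2 scale in siWT1 (adjusted p = 3.93e-05) and -0.58 ± 0.14 in siDual (adjusted p = 0.00143). With siNT2 as the only control the siDual value was -0.35 (adjusted p = 0.0676). NR1D1 was also called lower in siPAX8 (-0.36) and siSOX17 (-0.40), but with siNT2 as the only control these were -0.14 (adjusted p = 0.496) and -0.17 (adjusted p = 0.383). Both calls also ended without siNT1 replicate 1 (adjusted p = 0.0837 and 0.0588), the siPAX8 call without siNT2 replicate 2 or either siPAX8 library, and the siSOX17 call without siSOX17 replicate 1 (-0.26, adjusted p = 0.246). The siNT1 libraries had 6.79 and 5.90 CPM of NR1D1 and the siNT2 libraries 4.57 and 4.75 CPM, a difference that was not called (adjusted p = 0.374).

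The NR4A receptors are orphan factors whose genes are rapidly induced by many stimuli, through elements bound by CREB among others, and the 3 of them did not move together. NR4A3 (ENSG00000119508.17, plus strand of chromosome 9 at 99821855 to 99866891) had 7.86 and 8.94 CPM in siPAX8, against 3.25, 3.01, 3.23 and 2.75 CPM in controls. It rose in siPAX8 by 1.46 ± 0.12 on the log2 scale (adjusted p = 5.78e-09). In siDual, where PAX8 was also lowered, it had 3.11 and 3.17 CPM, inside the control range (log2 fold change 0.04 ± 0.14, adjusted p = 0.826). Its call in siMECOM (-0.38 ± 0.14, adjusted p = 0.0453) ended without either siMECOM library, at -0.48 without siMECOM replicate 1 (adjusted p = 0.0721) and -0.29 without siMECOM replicate 2 (adjusted p = 0.323), and it was lost in 9 of 15 alternatives, among them leaving out either siNT1 library or siNT2 replicate 1.

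NR4A2 had 1.02 and 1.41 CPM in siSOX17, 1.65 and 1.69 CPM in siDual and 6.71 and 6.51 CPM in siWT1, against 3.72, 3.38, 2.93 and 3.32 CPM in controls. The siSOX17 and siDual libraries lay below all controls and the siWT1 libraries above them. The log2 fold changes were -1.46 ± 0.20 in siSOX17 (adjusted p = 5.18e-06), -0.99 ± 0.19 in siDual (adjusted p = 0.00015) and 0.99 ± 0.15 in siWT1 (adjusted p = 3.37e-05). NR4A1 fell in siSOX17 (10.5 CPM, -0.77 ± 0.09, adjusted p = 1.06e-06), siDual (9.25 CPM, -0.96 ± 0.09, adjusted p = 5.77e-08) and siMECOM (12.4 CPM, -0.54 ± 0.09, adjusted p = 0.000131), against 18.2 ± 3.2 CPM in controls. Against siNT2 alone the siMECOM value was -0.34 (adjusted p = 0.0196). In siWT1 NR4A1 was called higher (24.0 CPM, 0.42 ± 0.08, adjusted p = 0.000694), and with siNT1 as the only control the value was 0.22 (adjusted p = 0.106). NR4A1 shares 10.3% of its length with AC025259.3 on the opposite strand.

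The promoters of RARG, THRA, NR1D2 and NR4A3 are shown because the first 3 genes fell together in siPAX8, siSOX17 and siDual while the fourth rose in siPAX8. The sequences are RefSeq's for GRCh38.p14, 250 bases before to 50 after an annotated start, 5′ to 3′ on the gene's strand. They lie at chr12:53232160-53232459 (minus strand), chr17:40062715-40063014 (plus), chr3:23945036-23945335 (plus) and chr9:99821635-99821934 (plus). The starts they refer to lie 771 bases for RARG, 4675 for THRA, 26 for NR1D2 and 30 for NR4A3 downstream of the outermost start of the gene in the deposited table, so those of RARG and THRA lie inside the gene. Capitals mark the GC box GGGCGG, the E-box CACGTG, the single receptor site AGGTCA, the SOX core ACAAT and the CREB core TGACG, on either strand.
RARG: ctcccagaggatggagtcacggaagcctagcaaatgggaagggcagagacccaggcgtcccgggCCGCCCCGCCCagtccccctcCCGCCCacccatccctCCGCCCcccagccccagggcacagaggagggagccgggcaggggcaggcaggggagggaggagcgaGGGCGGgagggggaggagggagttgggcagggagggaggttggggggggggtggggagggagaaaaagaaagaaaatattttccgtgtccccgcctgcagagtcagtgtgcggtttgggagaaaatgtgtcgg
THRA: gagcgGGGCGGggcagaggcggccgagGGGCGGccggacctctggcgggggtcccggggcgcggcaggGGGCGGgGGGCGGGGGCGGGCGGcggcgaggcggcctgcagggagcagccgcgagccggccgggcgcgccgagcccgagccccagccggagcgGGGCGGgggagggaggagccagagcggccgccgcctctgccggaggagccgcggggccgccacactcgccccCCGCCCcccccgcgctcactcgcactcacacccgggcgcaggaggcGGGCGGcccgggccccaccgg
NR1D2: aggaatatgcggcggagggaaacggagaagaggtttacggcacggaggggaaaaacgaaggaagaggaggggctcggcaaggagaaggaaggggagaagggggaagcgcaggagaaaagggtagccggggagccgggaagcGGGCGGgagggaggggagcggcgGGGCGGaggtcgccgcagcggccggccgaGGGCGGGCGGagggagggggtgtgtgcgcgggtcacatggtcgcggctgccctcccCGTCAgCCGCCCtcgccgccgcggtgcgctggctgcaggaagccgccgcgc
NR4A3: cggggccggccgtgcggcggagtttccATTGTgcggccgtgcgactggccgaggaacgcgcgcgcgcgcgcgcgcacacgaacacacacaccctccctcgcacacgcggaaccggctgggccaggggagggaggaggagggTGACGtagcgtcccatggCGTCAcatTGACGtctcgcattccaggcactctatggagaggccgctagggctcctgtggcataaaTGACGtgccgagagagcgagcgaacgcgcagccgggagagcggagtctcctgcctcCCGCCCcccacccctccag
RARG held 5 GC boxes, THRA 9 and NR1D2 5, a pair of them sharing 1 base in RARG and 2 bases in THRA and NR1D2. NR4A3 held 4 CREB cores, 1 GC box and 1 SOX core, and NR1D2 held 1 CREB core. Of the 35116 promoter windows of this length in the table, 45.0% held a GC box, 24.6% a CREB core, 27.4% a SOX core, 13.8% the receptor site and 7.26% the E-box. Windows were listed for 41 of the 46 receptors, and 49 of their 96 windows held a GC box. A match to these letters describes the sequence only.

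**Figure D3:**
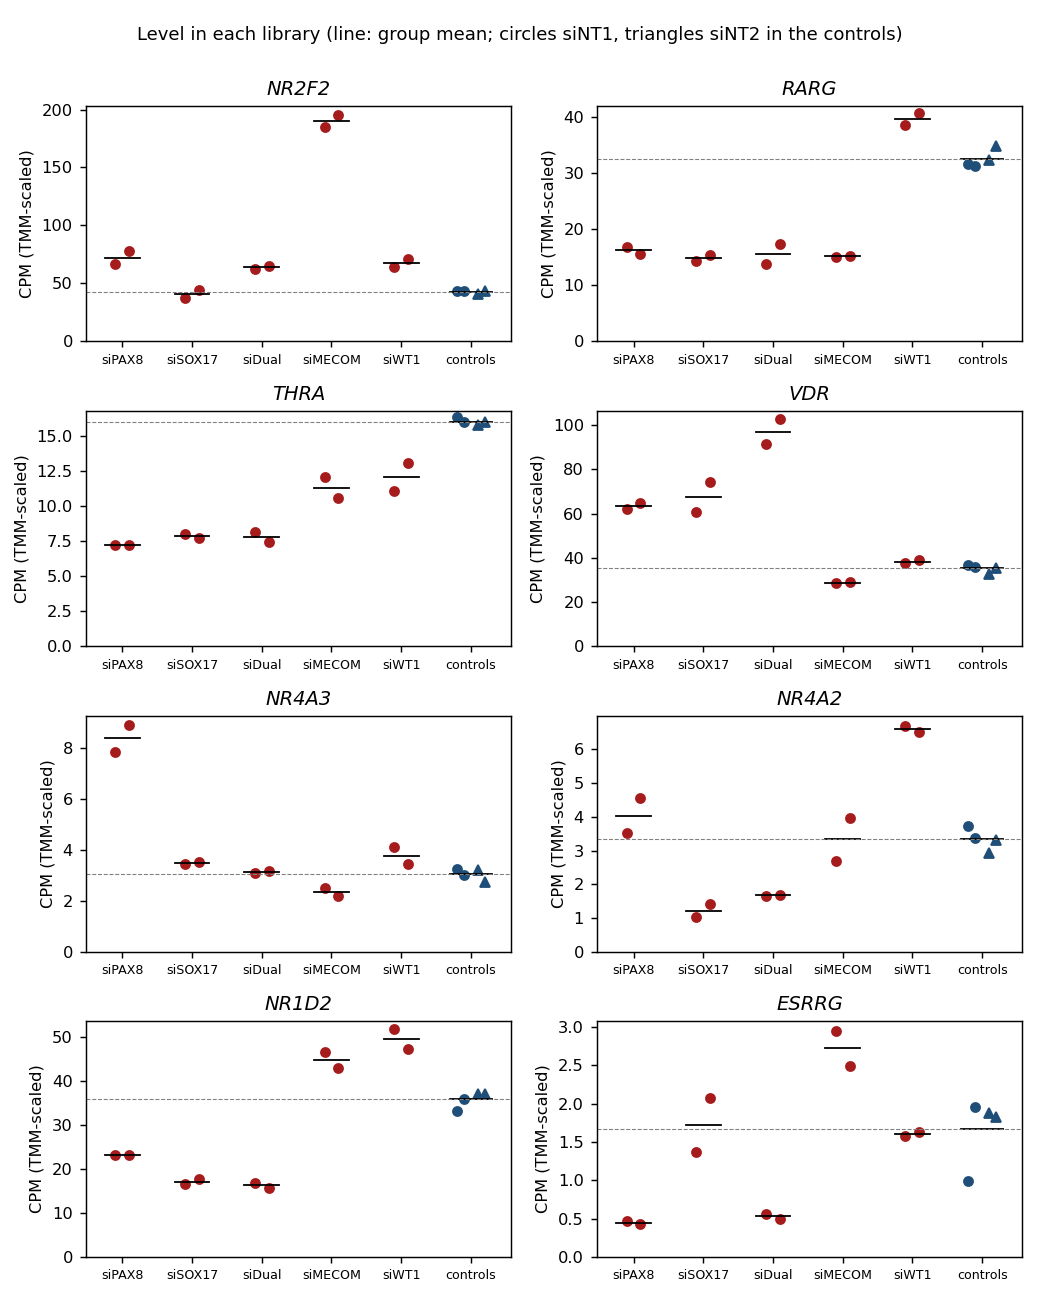
CPM in each library for 8 receptor genes, with the knockdowns from left to right and the 4 control libraries at the right of each panel (circles siNT1, triangles siNT2), and a bar at each group mean. Both siMECOM libraries of NR2F2 stand far above all others, and both siPAX8 libraries of NR4A3 stand above all others.

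NR2F2, an orphan receptor of mesenchyme, vein and steroid-producing tissue development, had the largest called increase. NR2F2 (ENSG00000185551.14, plus strand of chromosome 15 at 96325938 to 96340263) had 184.7 and 195.4 CPM in siMECOM, against 43.2, 43.3, 40.8 and 43.2 CPM in controls. The log2 fold change in siMECOM was 2.16 ± 0.08 (adjusted p = 2.13e-13). It also rose in siPAX8 (66.4 and 78.1 CPM, 0.76 ± 0.08, adjusted p = 1.47e-07), siDual (62.7 and 64.7 CPM, 0.58 ± 0.08, adjusted p = 4.8e-06) and siWT1 (64.0 and 71.3 CPM, 0.67 ± 0.08, adjusted p = 2.34e-06), in each case with both libraries above all controls. In siSOX17 it had 37.0 and 43.9 CPM, around the controls (-0.08 ± 0.08, adjusted p = 0.472). As NR2F2 is also a gene of stromal and venous cells, their markers were summed. The 4 fibroblast markers came to 14.8 to 14.97 TPM in siPAX8, 12.1 to 13.05 TPM in siSOX17, 14.9 to 16.0 TPM in siDual, 6.13 to 6.79 TPM in siMECOM and 6.84 to 7.22 TPM in siWT1, against 9.44 to 11.4 TPM in controls. The 3 endothelial markers came to 5.55 to 5.995 TPM in siPAX8, 1.81 to 2.00 TPM in siSOX17, 1.52 to 1.83 TPM in siDual, 2.64 to 3.11 TPM in siMECOM and 1.78 to 1.82 TPM in siWT1, against 3.00 to 3.62 TPM in controls. Both sums were thus above the controls in siPAX8, where NR2F2 rose, and the fibroblast sum also in siDual, where the endothelial sum was below. The fibroblast sum was above the controls in siSOX17 too, where NR2F2 was not called. In siWT1, where NR2F2 rose, both sums were below the controls. The part of such cells in the changes of NR2F2 was not tested. In siMECOM, where NR2F2 rose most, the fibroblast sum was below the controls.

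The related NR2F6 was the most abundant receptor and shares 8.26% of its length with AC010646.1 on the same strand. NR2F6 averaged 235.5 CPM in siPAX8, 151.5 CPM in siSOX17, 198.4 CPM in siDual, 194.2 CPM in siMECOM and 203.5 CPM in siWT1, against 271.9 ± 36.4 CPM in controls. Its largest decrease was in siSOX17, with 156.5 and 146.6 CPM against 231.1 to 308.0 CPM in controls (-0.83 ± 0.08, adjusted p = 9.79e-08). The others were -0.45 in siDual (adjusted p = 0.00013), -0.48 in siMECOM (adjusted p = 0.000183) and -0.41 in siWT1 (adjusted p = 0.000633), and against siNT1 alone they were -0.28 in siDual (adjusted p = 0.0163), -0.31 in siMECOM (adjusted p = 0.0174) and -0.25 in siWT1 (adjusted p = 0.0522). The value in siPAX8 (-0.20 ± 0.08, adjusted p = 0.0485) was -0.04 with siNT1 as the only control (adjusted p = 0.782), whose libraries had less NR2F6 than those of siNT2, and the call was lost in 9 of 15 alternatives, among them leaving out siNT1 replicate 1, either siNT2 library or either siPAX8 library. NR2C1 was called lower in siPAX8 (-0.40 ± 0.11, adjusted p = 0.00365, and 0.0538 without siPAX8 replicate 1). NR2C2 was also called lower there (-0.19 ± 0.07, adjusted p = 0.0324, and -0.12 with an adjusted p of 0.303 without siPAX8 replicate 1), a call lost in 8 of 15 alternatives, among them leaving out either siNT1 library or siNT2 replicate 1. NR2C2 shares 10.1% of its length with MRPS25 on the opposite strand.

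VDR, the receptor of the active form of vitamin D, rose with loss of PAX8 or SOX17. It had 62.1 and 64.9 CPM in siPAX8, 60.5 and 74.2 CPM in siSOX17 and 91.4 and 102.6 CPM in siDual, against 36.8, 36.0, 32.8 and 35.3 CPM in controls. All 6 of these libraries were above all controls, and both siDual libraries were above those of either single knockdown. The log2 fold changes were 0.85 ± 0.08 (adjusted p = 2.27e-08) in siPAX8, 0.93 ± 0.08 (adjusted p = 7.29e-09) in siSOX17 and 1.46 ± 0.08 (adjusted p = 7.76e-12) in siDual. In siMECOM VDR was called lower at 28.66 and 28.95 CPM (-0.29 ± 0.08, adjusted p = 0.0106), with an adjusted p of 0.0704 without siMECOM replicate 1 and 0.0705 without siMECOM replicate 2.

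PPARD and PPARA, fatty acid receptors that control fat oxidation, also rose in those 3 knockdowns. PPARD had 67.1 and 63.1 CPM in siPAX8, 70.1 and 76.0 CPM in siSOX17 and 93.3 and 80.1 CPM in siDual, against 45.5 to 51.1 CPM in controls (log2 fold changes 0.43, 0.60 and 0.85, adjusted p = 7.65e-05, 1.71e-06 and 1.15e-08). PPARA averaged 48.6, 45.4 and 46.04 CPM in siPAX8, siSOX17 and siDual, against 32.6 ± 1.3 CPM in controls (0.57, 0.47 and 0.50, adjusted p = 1.88e-05, 0.000167 and 8.96e-05), and the siSOX17 value was 0.28 (adjusted p = 0.0257) without siSOX17 replicate 2. In siWT1 PPARA fell to 16.0 and 17.8 CPM, below all controls (-0.95 ± 0.10, adjusted p = 2.97e-07). PPARD was called lower in siMECOM (-0.24 ± 0.08, adjusted p = 0.0219), with -0.17 (adjusted p = 0.276) without siMECOM replicate 2 and -0.22 (adjusted p = 0.0637) without siNT1 replicate 2.

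The oxysterol receptor NR1H2 had 171.3 and 156.5 CPM in siMECOM, against 183.5 to 219.0 CPM in controls (-0.32 ± 0.08, adjusted p = 0.00319), and -0.26 (adjusted p = 0.0846) without siMECOM replicate 2. NR1H3 was called in siWT1 (-0.30 ± 0.11, adjusted p = 0.0318, and 0.115 and 0.119 without siWT1 replicate 1 and 2), a call lost in 8 of 15 alternatives, among them leaving out siNT1 replicate 1 or siNT2 replicate 2. NR1I3, which shares 661 of its 3305 bases with TOMM40L on the opposite strand, averaged 9.61 CPM in siMECOM and 8.99 CPM in siWT1, against 5.88 to 7.56 CPM in controls (0.46, adjusted p = 0.00161, and 0.36, adjusted p = 0.00799). The siWT1 value of NR1I3 had an adjusted p of 0.0532 without siWT1 replicate 2 and 0.0915 against siNT1 alone.

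The glucocorticoid receptor NR3C1 rose in siPAX8 (101.6 CPM), siSOX17 (95.4 CPM) and siDual (107.7 CPM) and fell in siWT1 (60.2 CPM), against 78.7 ± 3.5 CPM in controls. Its log2 fold changes were 0.37 ± 0.07 (adjusted p = 0.000172), 0.28 ± 0.07 (adjusted p = 0.0024), 0.45 ± 0.07 (adjusted p = 1.56e-05) and -0.39 ± 0.07 (adjusted p = 0.000307). The mineralocorticoid receptor NR3C2 fell to 1.33 CPM in siWT1, against 2.45 ± 0.46 CPM in controls (-0.89 ± 0.20, adjusted p = 0.00154). Its calls in siSOX17 (-0.61) and siMECOM (-0.54) ended without siNT1 replicate 2, at -0.44 (adjusted p = 0.0830) and -0.36 (adjusted p = 0.182). The siSOX17 call also ended without siSOX17 replicate 2 (-0.47, adjusted p = 0.154), and the siMECOM call without siMECOM replicate 2 (-0.33, adjusted p = 0.394) or siNT2 replicate 1 (-0.54, adjusted p = 0.0599).

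ESR1, the oestrogen receptor alpha, stayed low throughout. It had 23 and 17 counts in siSOX17, 15 and 17 in siDual and 16 and 23 in siMECOM, against 4, 6, 14 and 8 counts in controls. On the CPM scale that was 0.572 and 0.451 in siSOX17, 0.399 and 0.383 in siDual and 0.352 and 0.448 in siMECOM, against 0.0943, 0.117, 0.281 and 0.176 in controls. All 6 libraries of these groups were above all controls, but such levels are what let ESR1 pass the filter. The separation is therefore not read as a result. In siPAX8 it had 10 and 17 counts (0.212 and 0.379 CPM) and in siWT1 20 and 11 counts (0.381 and 0.211 CPM), the lower library of each lying inside the control range. As ESR1 was tested only because of its level in knockdown libraries, no test of it is given. ESR2 had 0.109 CPM in siPAX8 and 0.0829 CPM in siDual, against 0.275 CPM in controls (-1.32 ± 0.71 and -1.66 ± 0.78, adjusted p = 0.130 and 0.0773).

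The oestrogen-related receptors bind similar DNA without oestrogen. ESRRG had 0.467 and 0.423 CPM in siPAX8 and 0.559 and 0.495 CPM in siDual, against 0.990, 1.95, 1.88 and 1.83 CPM in controls. All 4 libraries lay below the controls, with log2 fold changes of -1.90 ± 0.29 in siPAX8 (adjusted p = 1.61e-05) and -1.66 ± 0.29 in siDual (adjusted p = 5.87e-05). In siSOX17 ESRRG had 1.37 and 2.07 CPM, the second just above the highest control, with no call. In siMECOM it had 2.95 and 2.49 CPM (0.71 ± 0.21, adjusted p = 0.0131), with 0.58 (adjusted p = 0.132) without siMECOM replicate 1, 0.51 (adjusted p = 0.0506) without siNT1 replicate 1 and 0.55 (adjusted p = 0.102) with siNT2 as the only control. ESRRA fell in siSOX17 (34.6 CPM, -0.53 ± 0.08, adjusted p = 2.04e-05), siDual (38.0 CPM, -0.40 ± 0.08, adjusted p = 0.000339) and siMECOM (37.7 CPM, -0.41 ± 0.08, adjusted p = 0.000646) and rose in siWT1 (70.1 CPM, 0.49 ± 0.08, adjusted p = 5.4e-05), against 50.1 ± 4.4 CPM in controls. ESRRA shares 9.37% of its length with TRMT112 on the opposite strand. ESRRB had 15 and 15 counts in siWT1, against 6, 8, 10 and 2 in controls.

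NR6A1, a repressor known from germ cells and early embryos, had 1.57 and 1.41 CPM in siSOX17 and 1.68 and 1.49 CPM in siDual, against 2.90, 3.32, 4.17 and 3.19 CPM in controls. Both groups lay below all controls (-1.19 ± 0.18, adjusted p = 1.64e-05, and -1.10 ± 0.18, adjusted p = 2.57e-05). In siPAX8 it had 1.85 and 2.52 CPM (-0.64 ± 0.16, adjusted p = 0.00288), and -0.43 (adjusted p = 0.0911) without siPAX8 replicate 1. HNF4G was called in siDual (0.951 CPM, against 1.48 CPM in controls, -0.64 ± 0.20, adjusted p = 0.0116), and gave -0.43 (adjusted p = 0.193) without siDual replicate 2.

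Direct comparisons tested whether the knockdowns differed. Between siPAX8 and siSOX17, 15 of the 32 receptors were called, where 37.3% of all genes were. NR4A2 was higher in siPAX8 by 1.74 ± 0.22 on the log2 scale (adjusted p = 3.43e-06), NR4A3 by 1.27 ± 0.15 (adjusted p = 1.2e-06), NR2F2 by 0.84 ± 0.10 (adjusted p = 1.01e-06) and NR2F6 by 0.64 ± 0.09 (adjusted p = 2.38e-05). ESRRG was lower in siPAX8 (-1.94 ± 0.32, adjusted p = 8.84e-05) and THRB (-0.76 ± 0.09, adjusted p = 1.99e-06). For RARG, THRA, VDR and RXRA the differences were 0.13 ± 0.10, -0.12 ± 0.12, -0.08 ± 0.09 and 0.08 ± 0.10, none of them called.

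With the SOX17 pool added to the PAX8 pool (siDual against siPAX8), 10 receptors were called, where 19.6% of all genes were. NR4A3 was lower in siDual (-1.42 ± 0.15, adjusted p = 1.26e-06), NR4A2 (-1.27 ± 0.21, adjusted p = 0.000173), RARB (-1.01 ± 0.27, adjusted p = 0.0125) and NR4A1 (-0.85 ± 0.11, adjusted p = 9.97e-06), while VDR was higher by 0.61 ± 0.09 (adjusted p = 7.18e-05). With the PAX8 pool added to the SOX17 pool (siDual against siSOX17), 6 were called, where 15.7% of all genes were. ESRRG was lower in siDual (-1.70 ± 0.32, adjusted p = 0.000955). NR2F2 (0.66 ± 0.10, adjusted p = 7.55e-05), VDR (0.53 ± 0.09, adjusted p = 0.000423) and NR2F6 (0.39 ± 0.09, adjusted p = 0.00718) were higher in siDual.

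In siMECOM against siPAX8, 21 receptors were called, where 47.1% of all genes were, and in siMECOM against siSOX17, 17, where 48.4% were. NR2F2 was higher in siMECOM in both, by 1.395 ± 0.09 (adjusted p = 4.85e-10) and 2.23 ± 0.10 (adjusted p = 1.35e-12), and NR1D2 by 0.96 ± 0.08 (adjusted p = 2.1e-08) and 1.39 ± 0.09 (adjusted p = 1.96e-10). VDR was lower in siMECOM in both (-1.14 ± 0.09, adjusted p = 7.1e-09, and -1.22 ± 0.09, adjusted p = 3.14e-09). RARG gave -0.10 ± 0.10 and 0.03 ± 0.10, with no call in either.

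In siWT1 against siPAX8, siMECOM and siSOX17, 19, 16 and 19 receptors were called, where 57.4%, 45.2% and 57.8% of all genes were. RARG was higher in siWT1 than in each, by 1.29, 1.39 and 1.42 (SE 0.10 each, adjusted p = 2.11e-09, 2.76e-09 and 7.56e-10). PPARA was lower in siWT1 than in each, at -1.53, -0.72 and -1.43 (adjusted p = 5.28e-10, 2.32e-05 and 1.64e-09). NR4A2 was higher in siWT1 than in each, by 0.71, 0.98 and 2.45 (adjusted p = 0.00182, 0.000178 and 8.88e-09). Between the control pools, siNT1 against siNT2, 0 receptors were called by edgeR, where 0.300% of all genes were, with 6 at an unadjusted p under 0.05 and 1 called by DESeq2.

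The combined knockdown was also set against the sum of the single ones on the log2 scale. Of the 32 receptors, 9 departed from the sum, where 25.1% of all genes did. THRA and RARG lay above the sum by 1.14 ± 0.15 (adjusted p = 1.72e-05) and 1.08 ± 0.14 (adjusted p = 9.69e-06), each with a change in siDual close to that in either single knockdown. NR4A3 and RARB lay below the sum (-1.60 ± 0.20, adjusted p = 8.19e-06, and -1.21 ± 0.38, adjusted p = 0.0231), having risen in siPAX8 and not in siDual. VDR gave -0.32 ± 0.12 (adjusted p = 0.0557) and PPARD -0.19 ± 0.12 (adjusted p = 0.272). PAX8 averaged 51.7 CPM in siDual and 35.5 CPM in siPAX8, and the part of this in the departures was not tested.

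**Figure D4:**
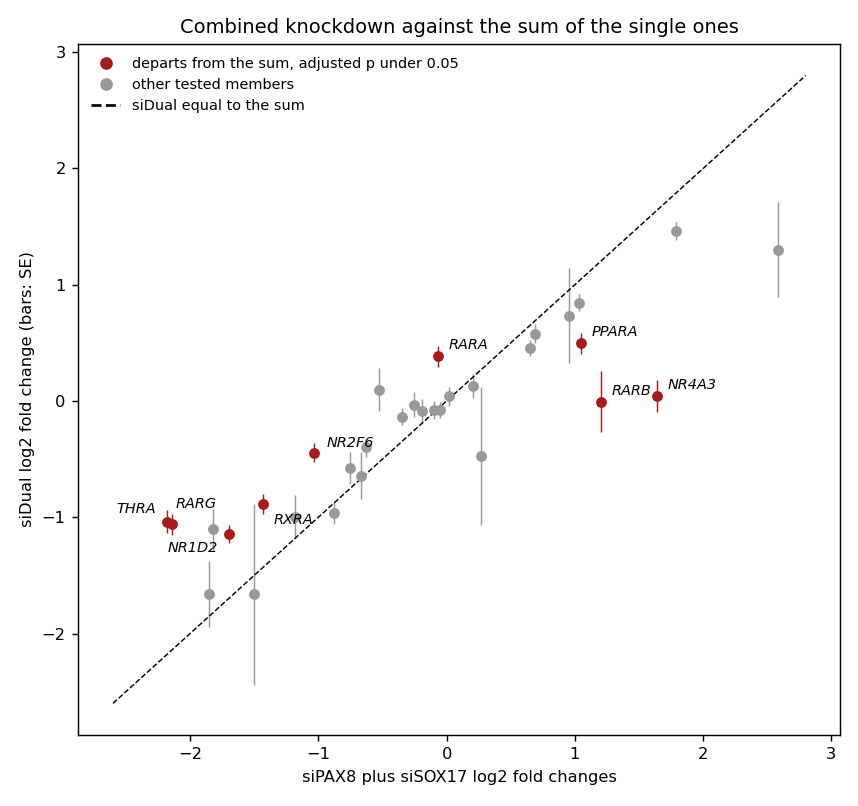
Log2 fold change in siDual (vertical, bars SE) against the sum of the siPAX8 and siSOX17 log2 fold changes (horizontal) for the 32 tested receptors, with the dashed line where they are equal. The 9 named genes departed from the sum, THRA by 1.14 and NR4A3 by -1.60.

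Nuclear receptors act through coregulators. The list counts from here on stand beside shares of all genes tested of 26.9% higher and 25.4% lower in siPAX8, 27.2% and 25.5% in siSOX17, 28.9% and 27.3% in siDual, 16.5% and 16.1% in siMECOM and 17.7% and 19.8% in siWT1, and list medians beside medians of -0.01 to 0.01 for all genes. They are descriptions, with no test of a list. Of 16 coactivator genes, all tested, 1 was higher and 10 lower in siPAX8, 3 and 10 in siSOX17, 2 and 11 in siDual, 2 and 5 in siMECOM and 5 and 5 in siWT1. Their median log2 fold change was -0.28, -0.27, -0.35, -0.11 and -0.07 in that order. PPARGC1A, the PPAR and ERR coactivator PGC1 alpha, fell to 3.17 CPM in siPAX8, 3.15 CPM in siDual and 4.55 CPM in siMECOM, against 10.2 CPM in controls (-1.68 ± 0.13, -1.69 ± 0.13 and -1.16 ± 0.12). NCOA7 fell to 16.0 CPM in siSOX17 and 14.02 CPM in siDual and rose to 84.2 CPM in siMECOM, against 39.3 CPM in controls. Of 11 corepressor genes, none was higher and 8 were lower in siPAX8 and in siDual, 2 were higher and 5 lower in siSOX17, 1 and 6 in siMECOM and 2 and 3 in siWT1, with medians of -0.35, -0.19, -0.48, -0.22 and -0.16.

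Genes known as targets, mostly from other tissues, were then counted by receptor. It was not checked which of them passed the low-count filter only through knockdown libraries. FABP4, LPL, THRSP and TRPV6 averaged 0.0884, 0.0909, 0.0998 and 0.107 CPM in controls. Their calls are not read as results, though the counts and medians include them. The receptors RARB, NR1H3, PGR, NR0B2 and ESRRA are themselves in these lists. For each list the counts are those higher and lower, and the medians are of log2 fold changes in siPAX8, siSOX17, siDual, siMECOM and siWT1. Of 12 measured retinoic acid receptor targets, 8 were higher and 2 lower in siPAX8, 4 and 4 in siSOX17, 7 and 2 in siDual, 3 and 2 in siMECOM and 3 and 4 in siWT1, with medians of 0.69, 0.09, 0.41, 0.03 and 0.01. CYP26A1, the retinoic acid hydroxylase, averaged 0.0754 CPM in siPAX8, 0.142 CPM in siSOX17, 0.102 CPM in siDual and 4.55 CPM in siMECOM, against 0.423 CPM in controls (-2.43 ± 0.47, -1.56 ± 0.43, -2.08 ± 0.47 and 3.43 ± 0.22). RARG averaged 16.2, 14.8, 15.5 and 15.2 CPM in the same 4 groups. TGM2, a transglutaminase induced by retinoids, rose to 791.7 CPM in siPAX8, 699.3 CPM in siDual and 184.4 CPM in siSOX17, against 92.3 CPM in controls (3.12 ± 0.17, 2.94 ± 0.17 and 1.02 ± 0.17). It fell to 60.4 CPM in siMECOM and 28.96 CPM in siWT1 (-0.59 ± 0.18 and -1.65 ± 0.19).

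Of 12 PPAR targets, 7 were higher and 1 lower in siPAX8, 5 and 2 in siSOX17, 4 and 2 in siDual, 1 and 2 in siMECOM and 3 and 3 in siWT1, with medians of 0.46, 0.15, 0.31, 0.04 and 0.20. The 7 include FABP4 and LPL, at 1.01 and 0.414 CPM in siPAX8, whose calls are not read as results. ANGPTL4, a lipase inhibitor that glucocorticoids and low oxygen also induce, rose to 14.3, 33.1 and 51.4 CPM in siPAX8, siSOX17 and siDual, against 0.877 CPM in controls (4.04 ± 0.13, 5.25 ± 0.12 and 5.89 ± 0.12). CPT1A, the mitochondrial fatty acid importer, fell in siPAX8 (-0.97), siSOX17 (-0.80), siDual (-1.26) and siMECOM (-1.14). Of 9 vitamin D receptor targets, 4 were higher and 1 lower in siPAX8, 3 and 2 in siSOX17, 4 and 2 in siDual, 1 and 2 in siMECOM and 2 and 3 in siWT1, with medians of -0.04, -0.04, 0.38, 0.33 and 0.06. CYP24A1, the enzyme that degrades active vitamin D, had 0.938 CPM in siPAX8 and 0.582 CPM in siDual, against 0.349 CPM in controls (1.496 ± 0.31, called, and 0.80 ± 0.35, not called). In siSOX17, where VDR also rose, CYP24A1 had 0.323 CPM (-0.04 ± 0.41, adjusted p = 0.947).

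Of 12 glucocorticoid receptor targets, 6 were higher and 4 lower in siPAX8, 6 and 5 in siSOX17, 6 and 5 in siDual, 4 and 4 in siMECOM and 3 and 5 in siWT1, with medians of 0.29, 0.33, 0.15, 0.13 and -0.05. TSC22D3 (GILZ) fell in all 5 knockdowns, with log2 fold changes of -1.01, -1.33, -1.38, -1.10 and -0.93. FKBP5 fell in siPAX8 (-0.96), siSOX17 (-0.42), siDual (-0.81) and siWT1 (-0.26) and rose in siMECOM (0.44). Of 12 oestrogen receptor targets, 3 were higher and 7 lower in siPAX8, 7 and 4 in siSOX17, 4 and 5 in siDual, 2 and 4 in siMECOM and 2 and 4 in siWT1, with medians of -0.57, 0.22, -0.11, -0.21 and -0.13. GREB1 averaged 0.435 CPM in siPAX8, 0.448 CPM in siSOX17, 0.551 CPM in siDual and 0.489 CPM in siMECOM, against 0.151 ± 0.079 CPM in controls. At so low a control level its being tested may have depended on the knockdown libraries, so its calls are not read as results. The carbonic anhydrase CA12 fell in all 5 knockdowns, most in siDual (-3.08) and least in siMECOM (-0.30).

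Of 9 LXR targets, 3 were higher and 1 lower in siPAX8, 1 and 3 in siSOX17, 1 and 2 in siDual, 1 and 3 in siMECOM and 3 and 3 in siWT1, with medians of 0.09, -0.13, -0.12, -0.10 and 0.07. ABCG1, a sterol transporter, had 0.255 CPM in siSOX17, 0.578 CPM in siDual, 0.566 CPM in siMECOM and 3.51 CPM in siWT1, against 1.51 CPM in controls (-2.49 ± 0.30, -1.34 ± 0.24, -1.36 ± 0.24 and 1.27 ± 0.17). Of 8 thyroid hormone receptor targets, 5 were higher and 1 lower in siPAX8, 2 and 5 in siSOX17, 2 and 3 in siDual, 2 and 3 in siMECOM and 2 and 1 in siWT1, with medians of 0.77, -0.83, -0.19, 0.06 and 0.07. DIO2, which activates thyroid hormone, averaged 10.8 CPM in siWT1, 6.39 CPM in siMECOM and 0.398 CPM in siSOX17, against 1.80 CPM in controls (2.61 ± 0.17, 1.86 ± 0.18 and -2.14 ± 0.31).

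Of 14 clock genes of the REV-ERB loop, 3 were higher and 5 lower in siPAX8, 4 and 8 in siSOX17, 4 and 7 in siDual, 3 and 2 in siMECOM and 6 and 5 in siWT1, with medians of -0.15, -0.23, -0.26, -0.0037 and 0.12. In siPAX8, siSOX17 and siDual the largest decreases of the list were PER3 (-0.90, -1.29 and -1.58) and DBP (-0.74, -1.14 and -1.10). PER1 was lower there too (-0.45, -0.90 and -0.95). ARNTL, repressed by the REV-ERBs, was higher in siPAX8, siSOX17 and siDual (0.39, 0.34 and 0.38), where NR1D2 was lower, and lower in siWT1 (-0.43), where NR1D1 and NR1D2 were higher. The part of NR1D2 in these changes was not tested. In siMECOM, where NR1D2 was also higher, ARNTL gave -0.09 (adjusted p = 0.618). NPAS2, another activator of the loop, moved opposite to ARNTL in siSOX17 (-0.24), siDual (-0.49) and siWT1 (0.40), and was lower in siMECOM (-0.26). CLOCK was lower in siPAX8 (-0.34) and siDual (-0.29), where CRY2 was higher (0.50 and 0.41). NFIL3 was lower in siSOX17 (-0.21). PER1, PER2 and NR1D1 were each higher in siWT1 (1.01, 0.81 and 0.78). Of 13 ERR and PGC1 target genes, which include ESRRA itself, 8 were higher and 1 lower in siWT1, and in siPAX8, siSOX17, siDual and siMECOM 0, 2, 0 and 0 were higher and 3, 4, 5 and 3 lower, with medians, again from siPAX8 to siWT1, of -0.10, 0.0018, -0.04, -0.15 and 0.34. TFAM, the mitochondrial DNA packaging factor, rose in siWT1 (0.63 ± 0.07) and fell in siPAX8 (-0.86), siSOX17 (-0.84) and siDual (-0.82). Of the 16 targets of the xenobiotic and bile acid receptors 7 were measured, and 3 were higher and 0 lower in siPAX8, 2 and 0 in siSOX17, 2 and 0 in siDual, 2 and 2 in siMECOM and 0 and 2 in siWT1, with medians of 0.48, 0.49, 0.08, 0.05 and -0.32. ABCC3, an exporter of conjugated bile acids and drugs, stood at 24.1, 25.0, 43.2 and 15.01 CPM in siPAX8, siSOX17, siDual and siMECOM, against 4.68 CPM in controls (2.37, 2.42, 3.21 and 1.69). Of 12 HNF4A targets only 4 were measured, HNF4A itself being near 0, and 1 to 3 of them were called in each knockdown.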

How the data were processed

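RNA of 14 OVCAR4 libraries was sequenced by the BGI-seq protocol, per the labels. The deposited values are raw read counts per gene on build hg38, with a gene length column, per the file headers. The authors used STAR 2.5.1b and featureCounts 1.6.3, per the submitters' processing notes, and the annotation and strand setting are not given in the sources used here. Symbols came from GENCODE 29 (57836 of 58219 genes matched), and promoter sequences from RefSeq. The receptors, the lists of coregulators and targets and the tests were chosen with earlier results of these data known. Samples were grouped by their titles.

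Low genes were dropped by edgeR 4.0.16 (filterByExpr, R 4.3.3) at a minimum count of 10 and total of 15, leaving 21032. A single quasi-likelihood model with TMM scaling held a coefficient for each of 7 groups (common dispersion 0.00573, coefficient of variation 7.57%, 7 residual degrees of freedom), and controls were the mean of siNT1 and siNT2. Adjustment was by Benjamini-Hochberg across the whole table. SE was computed as the absolute log2 fold change divided by the root of the F statistic. The step was tested on simulated data. TPM was computed from counts and lengths, without TMM. At these depths a count of 0 allows 3 counts, or 0.0572 to 0.0798 CPM of the effective library size, which covers counting error only. Receptors at 1 TPM or more in controls were named with their level, and those called with a log2 fold change of at least 1 and both libraries beyond all 4 controls were given in every library. The others were given by range, call or level. From each list at most 2 called genes per direction and knockdown were named, and some of these are also given for other knockdowns. LPL is named besides for its low control level, and CLOCK for its direction beside ARNTL. A single further gene named by this rule is not reported here. Alternatives included DESeq2 1.42.0, its size factors, other filters, a replicate block, either control pool alone, only the groups compared, no mitochondrially encoded genes, and each library left out.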

Additional observations from a re-analysis of the deposited data

Results flagged for a closer look

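In 24 receptors expressed in the controls, the 4 control libraries were checked for a value set apart from the other 3. NR3C1 was flagged for siNT2 replicate 1 at 73.4 CPM, with the other 3 at 79.8 to 80.8 CPM, and NR2F2 for the same library at 40.8 CPM, with the others at 43.2 to 43.3 CPM. Chance flags about 1 in 20 such groups.

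For 9 receptors siDual departed from the sum of siPAX8 and siSOX17, by the edgeR test. How the dose was divided in siDual is not given, and PAX8 averaged 51.7 CPM there and 35.5 CPM in siPAX8. A changed effect of a pool and a weaker knockdown therefore cannot be told apart. The departure on the log2 scale was 1.14 for THRA, 1.08 for RARG, 0.59 for NR2F6, 0.55 for NR1D2, 0.55 for RXRA and 0.46 for RARA, all above the sum. It was -1.60 for NR4A3, -1.21 for RARB and -0.55 for PPARA, all below it. The 6 genes above the sum were THRA, RARG, NR1D2, RXRA and NR2F6, each called lower in both single knockdowns, and RARA, called lower in siPAX8 and higher in siDual.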

How the results depend on the processing

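The 89 receptor calls against the controls, 3 of them of ESR1, were recomputed under the alternatives. In every alternative 61 held, 28 were lost in at least 1 and 0 changed direction. Against siNT1 alone 11 of 89 were lost, against siNT2 alone 14, with DESeq2 8, with only the groups compared 5, without a filter 3 and with DESeq2 size factors 1. Under the stricter filter 1 of 86 was lost. Without siMECOM replicate 2, 6 of 17 siMECOM calls were lost, and without siPAX8 replicate 1, 6 of 19 siPAX8 calls. With each library left out in turn, the receptors called lower ranged from 6 to 10 in siPAX8, from 5 to 11 in siMECOM and from 5 to 8 in siWT1. Between siNT1 and siNT2, 0 receptors were called, against 1 with no filter and 1 with DESeq2. Fewer libraries and other gene sets are part of these alternatives by construction, and otherwise the cause was not tested. Scaling by DESeq2 size factors moved the median of all genes by less than 0.02 on the log2 scale.

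Replicate numbers recur in every group, and the labels do not say that a number marks a shared batch. Same-numbered deviations correlated over 0.1 in 13 of 21 pairs of groups (range -0.0998 to 0.496), so a shared batch is possible, but as 8 pairs did not, the fit without a replicate block was kept. A replicate block ended 0 of the 89 calls, with 12 lower in siPAX8, 12 in siMECOM and 8 in siWT1. Depth limits ESR1, ESR2, ESRRB, RORA and the 14 untested receptors, whose counts per library were at most 30.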
